A study of Mus musculus with 36 samples.

Results

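The effect of repeated modafinil on gene expression in the mouse ventral tegmental area (VTA) was examined by comparing 5 VTA arrays of modafinil-treated mice with 5 VTA arrays of vehicle-treated mice. These 10 arrays were taken by their labels from a series of 36 that also covers the nucleus accumbens (NAC) and the prefrontal cortex. All mice were male, of the strain given as C57B1/6J, weighed 20 to 26 g and went through conditioned place preference, in which a drug is paired with the compartment that the animal first avoids. Over conditioning days 3 to 10 all mice received saline on alternate days. On the drug days the modafinil group received modafinil at 65 mg/kg and the vehicle group received saline again. Brains were taken directly after the preference test on day 11, 24 h after the last injection of drug or saline. VTA was punched at 1 mm diameter from slices 100 µm thick, and RNA was hybridised to Affymetrix mouse GeneChip arrays by the 3′ IVT method. The labels report that RNA of tissue pieces was pooled where its integrity number was above 7 and that 5 samples below 7 were left unpooled, without saying which. They do not state that each array came from a separate mouse, so every p-value below measures only the spread between these arrays.

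The VTA is a small midbrain nucleus whose dopamine neurons project to the striatum and the cortex and signal reward and salience. It also holds GABA and glutamate neurons and is bordered by other midbrain cell groups, white matter tracts and, in front and above, hypothalamus and thalamus. Modafinil promotes wakefulness and blocks the dopamine transporter, the product of Slc6a3. All levels below are the deposited log2 values of single probe sets, and all differences are modafinil minus vehicle on the log2 scale. The level of one probe set cannot be set against that of another.

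The arrays carried the markers of the labelled region, with a wide range inside both groups. Slc6a3 lay between 8.08 and 10.97 in modafinil VTA arrays and between 9.71 and 12.43 in vehicle VTA arrays, against 5.57 to 5.93 in vehicle NAC arrays. Slc18a2, the vesicular monoamine transporter, lay between 7.40 and 10.12 in modafinil VTA and between 8.96 and 11.60 in vehicle VTA, against 3.90 to 4.57 in vehicle NAC. Th, tyrosine hydroxylase, which starts dopamine synthesis, lay between 6.74 and 9.65 in modafinil VTA and between 8.59 and 10.72 in vehicle VTA, against 6.60 to 7.44 in vehicle NAC. The lowest Th value, that of modafinil array 1, was thus inside the NAC range, whereas Slc6a3 and Slc18a2 of every VTA array were above it. The first principal component of the VTA arrays, with 34% of the variance, put all modafinil arrays above 0 and all vehicle arrays below 0. The second component, with 19.7%, set vehicle array 4 apart, and the third, with 16.8%, set modafinil array 2 apart. All 3 control probe sets of beta-actin (Actb) were higher in every modafinil array than in any vehicle array, by 0.12, 0.25 and 0.18, and the Actb 3′ minus 5′ difference ran from 0.896 to 0.983 in modafinil arrays and from 0.942 to 1.18 in vehicle arrays. The 3 control probe sets of 18S ribosomal RNA were higher in the modafinil mean by 0.39, 0.70 and 0.71, with overlap. The part of RNA quality in the results was not tested.

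Of 27022 probe sets tested with limma across the table, 70 passed an adjusted p of 0.05, which is 0.259% of those tested. Of these, 51 were higher in modafinil VTA (0.189%) and 19 were lower (0.0703%). They named 59 genes, 44 higher and 15 lower, and 8 had no single gene symbol. Genes that passed included regulators of G protein, Ras and diacylglycerol signalling (Rasgrp1, Rgs16, Prkcd), clock-related transcription factors (Rora, Hlf, Ciart), interferon pathway genes (Stat2, Psmb9), ion channels (Kcna4, Cacna2d3) and, among the genes that fell, an anchor of acetylcholinesterase (Prima1) and POU transcription factors (Pou3f1, Pou3f4). In all 70 the modafinil and the vehicle arrays did not overlap. Such separation was found in 1.81% of all probe sets in the higher direction and in 3.93% in the lower direction. The sizes of the changes began at 0.31, and the adjusted p-values lay between 0.0454 and 0.0497, so every call sat close to the threshold. Modafinil array 1 held the highest value in 39 of the 51 probe sets that rose, and array 2 in 7, array 3 in 4 and array 4 in 1. Without modafinil array 1 the count was 49, without modafinil array 3 it was 172, and without modafinil array 4 or any one of vehicle arrays 1, 2 or 3 limma called 0, with 4651 to 5437 probe sets at an unadjusted p under 0.05. With quantile normalization of these arrays 311 probe sets passed, including all 70.

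**Figure D1:**
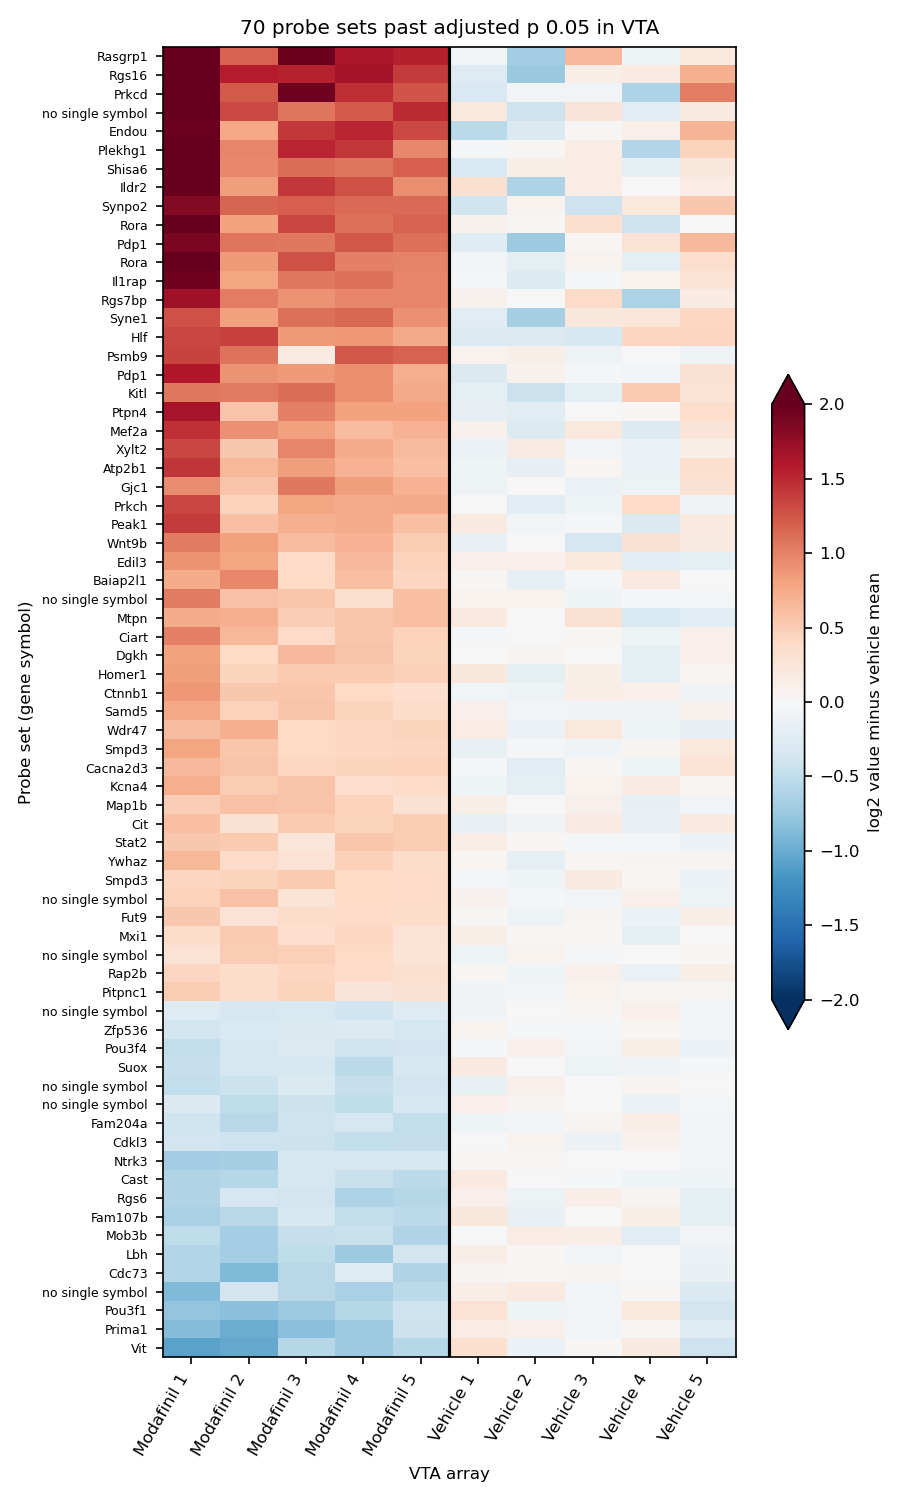
Levels of the 70 probe sets past adjusted p 0.05, one per line, in the 10 VTA arrays (modafinil 1 to 5 left of vehicle 1 to 5). Colour is the log2 level minus the mean of the vehicle arrays, clipped at 2 in both directions. The 51 probe sets that rose and the 19 that fell separate the groups without overlap, and modafinil array 1 is the most strongly coloured column in the upper block.

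At the unadjusted threshold of 0.05 the balance between directions was the opposite of that among the calls. Of the tested probe sets 1849 were higher (6.84%) and 3846 lower (14.2%), against 1351 expected at that threshold over both directions. The median difference of all probe sets was −0.0466, and −0.0117 after quantile normalization. For gene families each of 12567 genes was read from its brightest probe set, which need not be the one that passed. By this reading 14 genes rose (0.111%) and 9 fell (0.0716%) at the adjusted threshold, 5.56% were higher and 15.5% lower at an unadjusted p under 0.05, and the median difference was −0.058. The values of the gene lists below stand beside these shares. Passing at the unadjusted threshold is written as higher or lower and not as a change. Of 51 list counts of 1 or 2 members in a direction, 41 moved by over 1.5 times when a single array was left out, and larger counts that did so are given with their values. The counts over all genes moved as well. With single arrays left out 1412 to 2379 genes were lower, beside 1950 with all arrays, and 545 to 703 were higher, beside 699. List counts with an array left out are to be read beside these ranges.

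Markers of neuron classes differed in level between the groups. Thalamic neuron markers were mostly higher in modafinil VTA and dopamine neuron markers mostly lower. Of 21 thalamic markers 16 were higher at an unadjusted p under 0.05 and 1, Calb2, was lower at −0.46. The median difference was 0.995, 19 of 21 values were above 0 (31.4% of all genes), and 10 of the 21 did not overlap between groups, beside 1.54% of all genes (4.23% in the lower direction). Genes in this list had been named in earlier results of the same data, and without them 9 of 14 were higher with a median of 0.62. Of these 14, 4 did not overlap and none passed the adjusted threshold. Ramp3, a receptor activity-modifying protein with strong expression in thalamus, had levels of 10.38, 9.13, 9.60, 9.43 and 9.24 in modafinil arrays 1 to 5, against 7.34, 5.93, 8.02, 7.40 and 8.65 in vehicle arrays 1 to 5. Every modafinil array was above every vehicle array, with a difference of 2.09 (SE 0.41, limma adjusted p = 0.0523). The slow troponin gene Tnnt1 differed by 1.89 and Gabrd, the delta subunit of extrasynaptic GABA receptors, by 1.69, also without overlap. Tcf7l2, a Wnt pathway transcription factor that marks thalamic neurons, differed by only 0.46 and overlapped. In vehicle NAC arrays Ramp3 lay between 7.63 and 8.57 and Tnnt1 between 5.23 and 8.37. Both ranges overlapped those of vehicle VTA, so these genes were not particular to thalamus in this series. Tcf7l2 (6.68 to 7.19) and Prkcd (6.42 to 6.66 on its brightest probe set) were lower in vehicle NAC than in every VTA array. The mean level of the list was 10.18, 9.24, 9.58, 9.43 and 9.37 in modafinil arrays 1 to 5 and 8.39, 7.86, 8.55, 9.06 and 9.01 in vehicle arrays 1 to 5. Of the 59 genes past the adjusted threshold on any probe set 5 belong to this list, namely Prkcd, Rora, Rgs16, Synpo2 and Plekhg1. Read from the brightest probe set, 1 of the 21 passed as higher, beside 0.111% of all genes.

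Dopamine neuron markers ran the other way. Of 20 tested, 18 were lower at an unadjusted p under 0.05, none passed the adjusted threshold, all 20 values were below 0 and the median difference was −0.83. Slc6a3 had levels of 8.08, 9.06, 9.30, 8.42 and 10.97 in modafinil arrays 1 to 5, against 12.43, 11.14, 11.07, 9.71 and 10.67 in vehicle arrays 1 to 5. Modafinil array 5 was higher than vehicle arrays 4 and 5, and so the groups overlapped. The difference was −1.84 (SE 0.54, limma adjusted p = 0.103). Th differed by −1.50 (adjusted p = 0.131) and Slc18a2 by −1.55 (0.133). Gch1, which makes the cofactor of tyrosine hydroxylase, differed by −1.59, and Ret, a receptor for glial cell line-derived factors, by −1.29. Sncg, which encodes gamma-synuclein, was the only marker without overlap, at −0.85 (adjusted p = 0.0523). Averaged over its members the list stood at 7.40, 7.74, 7.94, 7.74 and 8.71 in modafinil arrays 1 to 5 and at 9.62, 8.92, 8.84, 8.28 and 8.57 in vehicle arrays 1 to 5. Modafinil array 5 was the one inside the vehicle range. With all arrays 1 of the 20 markers had no overlap, beside 4.23% of all genes in the lower direction. In bulk tissue, fewer cells of a type and less RNA per cell cannot be told apart. Dopamine level or thalamic level as a covariate left 0 probe sets past the adjusted threshold in limma (2060 and 4278 at an unadjusted p under 0.05), and the median size of the 70 changes was then 0.53 with the dopamine level and 0.47 with the thalamic level, beside 0.61 without. The value was below the reported one divided by 1.5 in 12 of the 70 with the dopamine level and in 27 with the thalamic level, where the smallest was 0.244 of the reported size. With the thalamic level the values were 0.31 for Prkch, 0.33 for Ptpn4, 0.22 for Kcna4, 0.38 for Atp2b1, 0.37 for Syne1, 0.51 for Il1rap, 0.54 for Ildr2, 0.61 for Endou and 0.46 for Kitl. For the Pdp1 probe sets they were 0.31 and 0.62. Under the same covariate Ywhaz was at 0.21, Cacna2d3 at 0.30, Smpd3 at 0.29, Ctnnb1 at 0.31, Wnt9b at 0.43, Peak1 at 0.53, Mef2a at 0.53, Rora at 0.62, Synpo2 at 0.76 and Shisa6 at 0.85. Rora and Smpd3 each had another called probe set, at 1.02 (1.29 without a covariate) and 0.40 (0.44 without). With the dopamine level Wnt9b was at 0.41, Kcna4 at 0.33, Smpd3 at 0.32, Ctnnb1 at 0.36, Kitl at 0.62, Synpo2 at 0.85, Vit at −0.51, Pou3f1 at −0.44 and Suox at −0.26, and the Pdp1 probe sets at 0.79 and 0.62. The other called Smpd3 probe set was then at 0.41. All of these genes are described below with their values without a covariate. The thalamic level separated the groups without overlap, and only modafinil array 5 was inside the vehicle range of the dopamine level. Treatment and these levels therefore cannot be cleanly told apart by such a fit. The thalamic level is also built in part from Prkcd, Rora, Rgs16, Synpo2 and Plekhg1. The part of tissue composition in each change was not tested further.

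**Figure D2:**
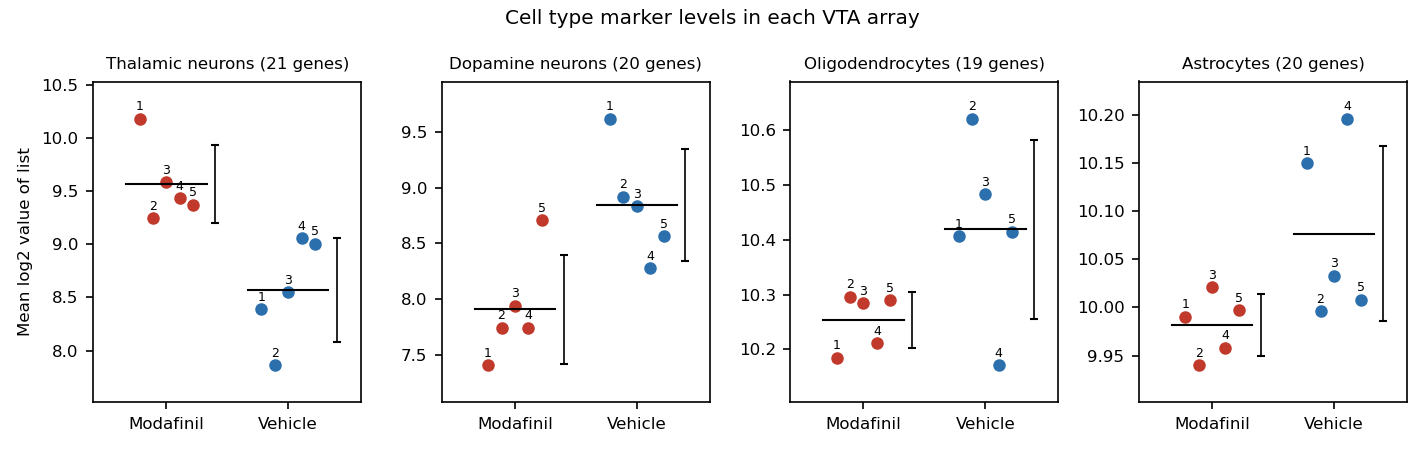
Mean log2 level of 4 marker lists in each VTA array, modafinil left and vehicle right. Points are arrays, lines the group mean and bars the SD of 5 arrays. The thalamic list lies between 9.24 and 10.18 in modafinil arrays and between 7.86 and 9.06 in vehicle arrays, and the dopamine list between 7.40 and 8.71 in modafinil arrays and between 8.28 and 9.62 in vehicle arrays.

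Other cell classes differed less. Among hypothalamic markers 1 of 14 was higher, the orexin precursor gene Hcrt at 0.90. Pmch, the precursor of melanin-concentrating hormone, ranged from 6.78 in modafinil array 2 to 11.04 in modafinil array 1, and from 6.91 to 9.68 in vehicle arrays. Of 14 cortical and hippocampal excitatory markers 4 were higher, among them the transcription factor gene Mef2c (0.82) and the calmodulin kinase gene Camk2a (0.79), both without overlap. Of 13 genes listed as GABA neuron markers 1 was higher, Npy, the neuropeptide Y precursor gene (0.62, without overlap), and 1 was lower, the GABA transporter gene Slc6a11 (−0.20). A difference in this transporter gene alone does not show one in GABA neurons. Without vehicle array 3 the count of higher GABA markers was 3, and without vehicle array 4 that of lower ones was 4. Of 14 striatal markers 1 was lower, the dopamine receptor gene Drd1 at −0.39.

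Among glial lists the oligodendrocyte markers leaned lower. Of 19, 7 were lower and none higher, with a median of −0.19. They included the myelin genes Mog (−0.28), Ugt8a (−0.27) and Fa2h (−0.27), while Mbp differed by −0.08. The mean level of the list was 10.19 to 10.30 in modafinil arrays and 10.17 to 10.62 in vehicle arrays, with vehicle array 4 the lowest of all, and without that array 12 were lower. Of 9 precursor markers 3 were lower, with list levels of at most 9.19 in modafinil arrays and 9.20 to 9.24 in vehicle arrays, and without modafinil array 2 the count was 1. Of 20 astrocyte markers 3 were lower, and these were the intermediate filament gene Gfap (−0.93), the water channel gene Aqp4 (−0.41) and the transcription factor gene Sox9 (−0.38). Gfap stood at 6.56, 6.64, 6.79, 6.44 and 6.71 in modafinil arrays 1 to 5, against 8.47, 6.77, 7.25, 8.32 and 6.99 in vehicle arrays 1 to 5. Vehicle arrays 1 and 4 were the high ones, and without vehicle array 4 the astrocyte count was 5. Of 15 microglia and macrophage markers 1 was higher, the complement gene C1qb (0.20), and Aif1, which encodes the microglial protein Iba1, differed by 0.10 with overlap. Of 5 lymphocyte and neutrophil markers 1 was higher, the perforin gene Prf1 (0.43).

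Of the probe sets past the adjusted threshold, the one with the highest rise belonged to Rasgrp1, a calcium- and diacylglycerol-sensitive activator of Ras. It stood at 8.95, 6.91, 7.69, 7.37 and 7.28 in modafinil arrays 1 to 5 and at 5.67, 5.03, 6.38, 5.64 and 5.94 in vehicle arrays 1 to 5. The lowest modafinil array was above the highest vehicle array. The rise was 1.91 (SE 0.34), which is 3.76-fold (limma adjusted p = 0.0462). A second, brighter Rasgrp1 probe set differed by 1.44 (adjusted p = 0.0845). Rgs16, which speeds the turn-off of Gi and Gq signalling, had 8.86, 8.18, 8.16, 8.28 and 8.01 in modafinil arrays and 6.36, 5.88, 6.74, 6.79 and 7.34 in vehicle arrays. Modafinil levels kept within a narrow band above all vehicle levels, with a rise of 1.68 (SE 0.23, limma adjusted p = 0.0454). Prkcd, a protein kinase C activated by diacylglycerol, had 8.83, 7.61, 8.33, 7.87 and 7.64 in modafinil arrays and 6.08, 6.33, 6.34, 5.77 and 7.41 in vehicle arrays. Vehicle array 5 came closest to the modafinil arrays, and the rise was 1.67 (SE 0.29). A brighter Prkcd probe set differed by 2.16 without overlap and did not pass (limma adjusted p = 0.0523). With the thalamic level as a covariate the values for these probe sets were 0.80 for Rasgrp1, 0.75 for Rgs16 and 1.03 for Prkcd. Rgs16 and Prkcd belong to the thalamic list, so that covariate is built in part from the same genes.

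Several other genes of this signalling layer passed. Prkch, another diacylglycerol-activated protein kinase C, rose by 0.82, and Dgkh, a kinase that removes diacylglycerol, rose by 0.58. Rgs7bp, the membrane anchor of R7-type regulators of G protein signalling, rose by 1.11, whereas Rgs6, itself an R7-type regulator, fell by 0.50. Rgs4 was just outside the threshold at 0.84 (limma adjusted p = 0.0514). Plekhg1 rose by 1.38, the Ras-like GTPase gene Rap2b by 0.39, and the citron kinase gene Cit by 0.48. The tyrosine phosphatase gene Ptpn4 rose by 0.97 and the pseudokinase gene Peak1 by 0.81. Smpd3, a neutral sphingomyelinase, rose by 0.44 and 0.52 on 2 probe sets, and Pitpnc1, a phosphatidylinositol transfer protein, by 0.38. The MOB family gene Mob3b fell by 0.54 and the kinase-like gene Cdkl3 by 0.44. Across whole families the picture was mixed. Of 17 regulators of G protein signalling 5 were higher and 2 lower, of 24 heterotrimeric G protein subunits 1 was higher (Gnal, the olfactory-type stimulatory subunit, at 0.51) and 3 lower, and of 15 protein kinase C and diacylglycerol kinase genes 3 were higher and 4 lower. Of 19 Ras family exchange factor and GTPase-activating genes 2 were higher and 3 lower. Adcy1, a calmodulin-stimulated adenylyl cyclase, differed by 0.82 without overlap in a family of 24 with 2 higher and 3 lower. The counts of lower genes moved with single arrays. For G protein subunits the count was 1 without modafinil array 2 or vehicle array 1 or 3, and for the kinase list it was 2 without modafinil array 2, 4 or 5 or vehicle array 3, with 5 higher without modafinil array 2. For the Ras list it was 5 without modafinil array 3 or 4 or vehicle array 4, and for the family of Adcy1 it was 1 without modafinil array 1 and 5 without vehicle array 4.

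Genes of excitability and calcium handling were next. Atp2b1, the plasma membrane calcium pump, stood at 11.08, 10.31, 10.48, 10.34 and 10.25 in modafinil arrays 1 to 5 and at 9.57, 9.49, 9.69, 9.53 and 9.96 in vehicle arrays 1 to 5. Modafinil array 1 was the highest and the other 4 lay close together above all vehicle arrays, with a rise of 0.84 (SE 0.15). Kcna4, a fast-inactivating potassium channel, rose by 0.51 and Cacna2d3, an auxiliary calcium channel subunit, by 0.51. Gjc1, a connexin, rose by 0.82 on a probe set that may read related transcripts. Shisa6, an auxiliary subunit of AMPA receptors, rose by 1.33. Homer1, a postsynaptic scaffold, rose by 0.56 on 1 probe set, but its 5 tested probe sets ran from −0.48 to 0.56. Of 51 potassium channel genes 9 were higher and 7 lower, with Kcnj9, a G protein-gated channel, at 0.59 and the silent subunit gene Kcng4 at −0.68. The count of lower potassium channel genes was 2 when either modafinil array 1 or vehicle array 2 was left out and 4 when modafinil array 4 was. Of 21 voltage-gated calcium channel genes 6 were higher, including the L-type gene Cacna1c (0.51) and the T-type gene Cacna1g (0.40), and 2 lower, including Cacna2d2 (−0.38).

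Receptor families differed in their direction. Of 10 GABA receptor subunits tested, 5 were higher and none lower, 3 of them without overlap, and the median difference was 0.18. The highest were Gabrd (1.69) and Gabra4 (1.22), partners in extrasynaptic thalamic receptors and both also in the thalamic list, followed by Gabrb2 (0.45), Gabrg3 (0.23) and Gabrb1 (0.22). Of 8 acetylcholine receptor genes 3 were lower, with Chrna6 at −1.41 and Chrnb3 at −0.73, both also dopamine neuron markers, and Chrna7 at −0.31. Among 8 dopamine, histamine, orexin and melanin-concentrating hormone receptors 1 was higher, the histamine receptor gene Hrh2 (0.25), and 3 were lower, in that the dopamine receptor gene Drd2 differed by −0.90, the orexin receptor gene Hcrtr1 by −0.60 and Drd1 by −0.39. Of 8 serotonin receptor genes 2 were higher, with Htr1f at 0.70 (without overlap, adjusted p = 0.0523), and 2 lower, with Htr4 at −0.50. Of 15 ionotropic glutamate receptor genes 3 were higher, including Grin2b (0.38) and Grin2c (0.42), and 2 lower, including Grik3 (−0.43).

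**Figure D3:**
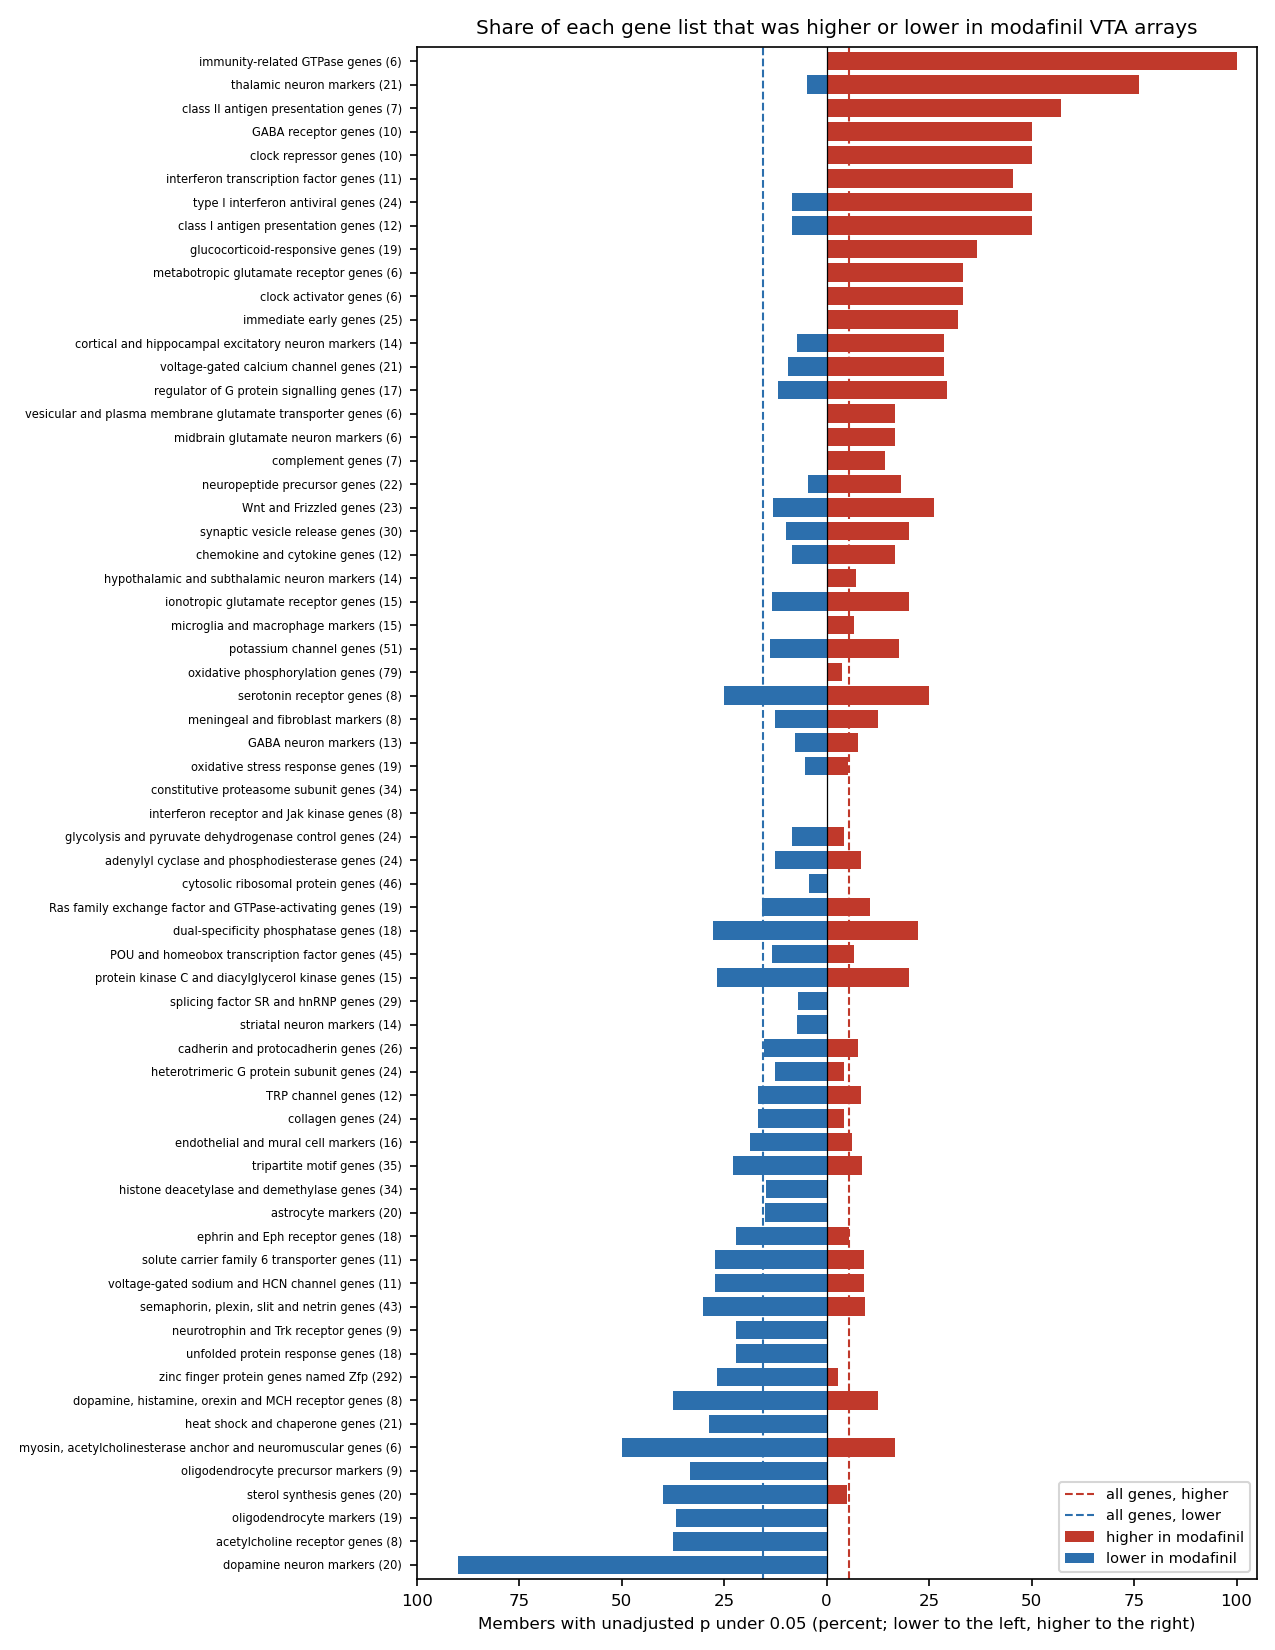
Share of each gene list's tested members that were higher or lower in modafinil VTA at an unadjusted p under 0.05, for lists with at least 6 tested members (number in brackets). Dashed lines mark the shares over all 12567 genes, 5.56% higher and 15.5% lower. Immunity-related GTPase, thalamic, GABA receptor and clock repressor lists lie well beyond the line for higher genes, and dopamine neuron markers lie farthest out among lower genes.

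Genes of transcription, adhesion and metabolism completed the calls. Prima1, which anchors acetylcholinesterase to the membrane, stood at 7.76, 7.63, 7.79, 7.90 and 8.19 in modafinil arrays 1 to 5 and at 8.78, 8.73, 8.58, 8.67 and 8.37 in vehicle arrays 1 to 5. Every modafinil array was lower than every vehicle array, with a fall of 0.77 on the log2 scale (SE 0.11, limma adjusted p = 0.0454). The other tested Prima1 probe set differed by −0.27 with overlap (limma adjusted p = 0.149). Bche, a related cholinesterase, differed by −0.38 with overlap. Pou3f1, a POU-domain transcription factor, had 7.19, 7.15, 7.25, 7.41 and 7.56 in modafinil arrays and 8.27, 7.89, 7.93, 8.19 and 7.62 in vehicle arrays. Modafinil array 5 and vehicle array 5 nearly met, and the gene fell by 0.67. The other tested Pou3f1 probe set differed by −0.17 with overlap (limma adjusted p = 0.209). Its relative Pou3f4 fell by 0.38 on the probe set that passed, and Zfp536, a zinc finger repressor, fell by 0.32. Cdc73, a subunit of the polymerase-associated Paf1 complex, fell by 0.58, as did the transcriptional cofactor gene Lbh. The transcription factor gene Mef2a rose by 0.90 and Mxi1, a repressor that pairs with Max, by 0.39.

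Ntrk3, the receptor of neurotrophin-3, had 8.25, 8.29, 8.61, 8.62 and 8.63 in modafinil arrays 1 to 5 and 8.98, 8.97, 8.96, 8.94 and 8.90 in vehicle arrays 1 to 5. The vehicle values were almost equal, modafinil arrays 1 and 2 were the lowest, and the gene fell by 0.47 (SE 0.084). A brighter Ntrk3 probe set differed by −0.15 (adjusted p = 0.265). Gfra1, the co-receptor of glial cell line-derived neurotrophic factor, differed by −0.52 without overlap. The matrix protein gene Vit fell by 0.79, and the integrin ligand gene Edil3 rose by 0.63. Kitl, the ligand of the receptor kinase Kit, had 8.91, 8.89, 8.97, 8.77 and 8.61 in modafinil arrays and 7.66, 7.42, 7.67, 8.38 and 8.12 in vehicle arrays, a rise of 0.98 with vehicle arrays 4 and 5 nearest the modafinil ones. Wnt9b, a Wnt ligand, rose by 0.74, and Ctnnb1, the Wnt pathway effector beta-catenin, rose by 0.54. Of 23 Wnt and Frizzled genes 6 were higher and 3 lower, with the receptor gene Fzd5 at 1.29 and Wnt5a at −0.69. Of 43 semaphorin, plexin, slit and netrin genes 4 were higher, including the netrin-like Ntng1 (0.77), and 13 lower, including Sema3e (−0.69), Ntn1 (−0.57) and Sema5b (−0.46). Without vehicle array 3 the count of higher ones was 2.

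Cytoskeletal genes that rose were Syne1 (1.05), which links the nucleus to actin, Synpo2 (1.29), Map1b (0.48), Wdr47 (0.52), Mtpn (0.62) and Baiap2l1 (0.63). The immune-type receptor genes Il1rap, a co-receptor of interleukin 1, and Ildr2 rose by 1.17 and 1.32. The 5 tested Il1rap probe sets ran from −0.03 to 1.17. Enzyme genes that rose were Pdp1, the phosphatase that activates pyruvate dehydrogenase, by 1.27 and 0.99 on 2 probe sets, the endoribonuclease gene Endou by 1.40, the xylosyltransferase gene Xylt2 by 0.84 and the fucosyltransferase gene Fut9 by 0.39. Samd5 rose by 0.52 and Ywhaz, a 14-3-3 protein gene, by 0.44. The sulfite oxidase gene Suox fell by 0.39, the calpain inhibitor gene Cast by 0.50, Fam107b by 0.50 and Fam204a by 0.44. Just outside the threshold were Npy1r, a neuropeptide Y receptor (0.71, limma adjusted p = 0.0501), the protease gene Prss23 (−0.61, 0.0503), Nsmf (0.55, 0.0503) and the sodium-calcium exchanger gene Slc24a3 (0.54, 0.0514). Of the called genes with more than 1 tested probe set, 42 of 44 had all of them in 1 direction, the exceptions being Homer1 and Il1rap. Agreement in direction was not agreement in size. Tested probe sets ran from 0.19 to 1.05 for Syne1, 0.10 to 0.52 for Wdr47 and 0.02 to 0.44 for Ywhaz. They ran from 0.06 to 0.63 for Edil3, −0.58 to −0.08 for Cdc73 and −0.58 to −0.04 for Lbh. Those of others lay closer together, such as 0.84 to 0.92 for Atp2b1 and 0.52 to 0.55 for Samd5.

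**Figure D4:**
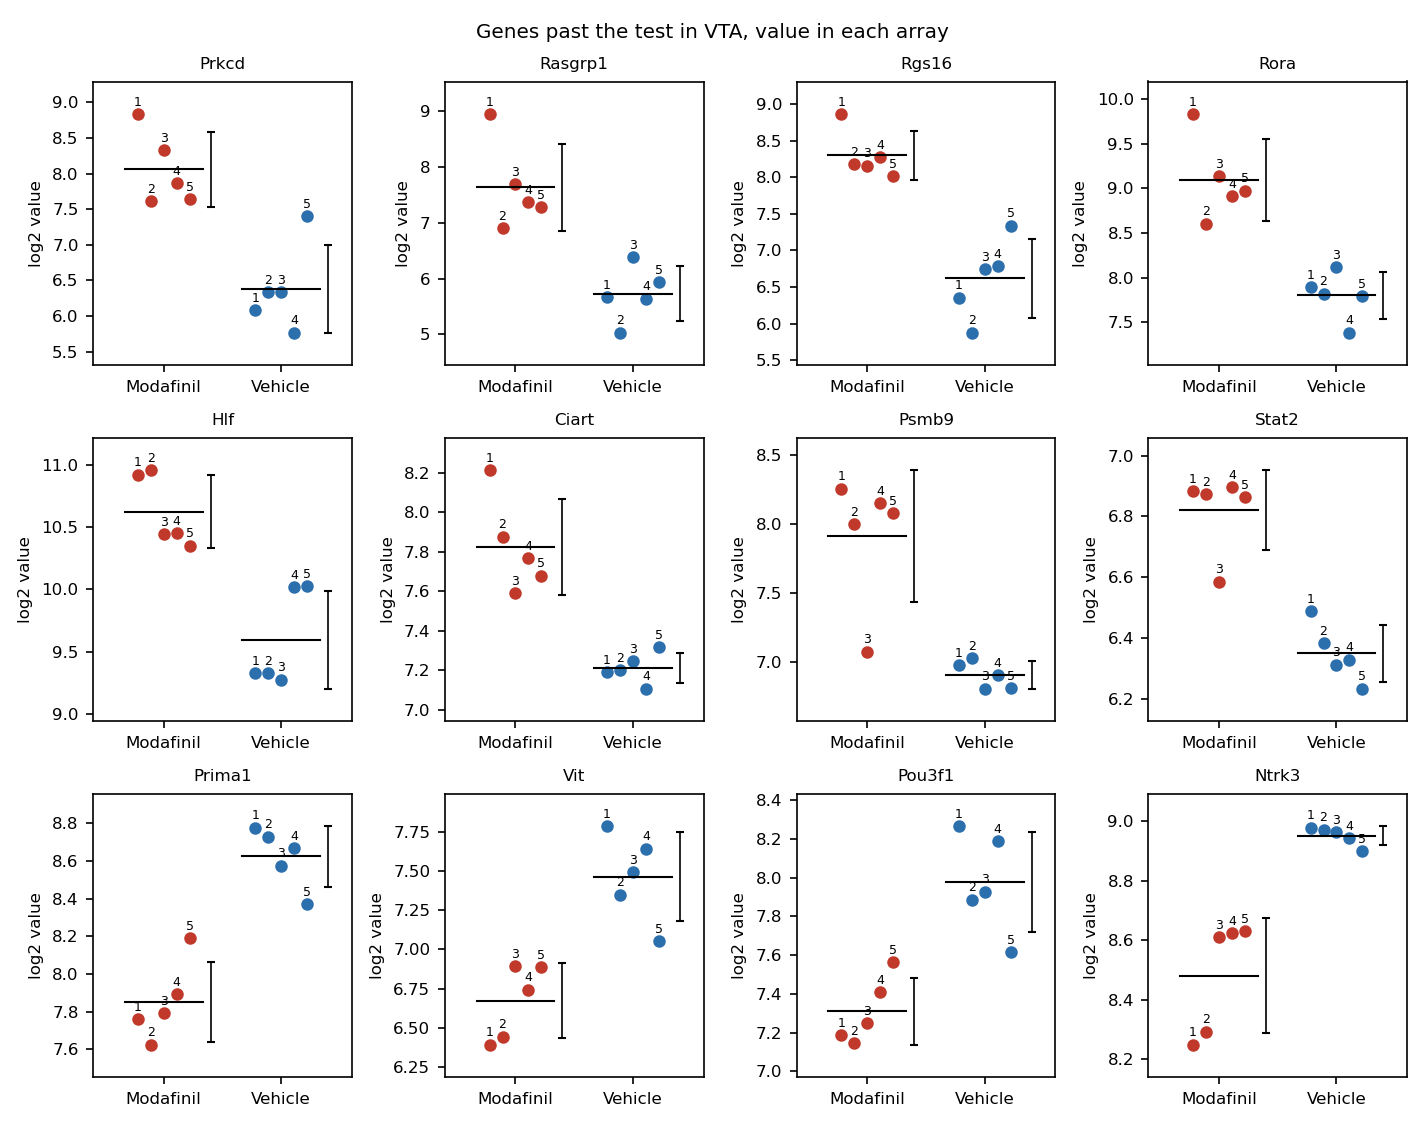
Log2 level of 12 probe sets in each VTA array, modafinil left and vehicle right, with the mean as a line and the SD of 5 arrays as a bar. In each panel the groups do not overlap. Psmb9 in modafinil array 3 (7.07) lies just above the highest vehicle array (7.03).

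Mean levels of the interferon-induced GTPase, immunoproteasome and antiviral gene lists were higher in 4 of the 5 modafinil arrays than in any vehicle array. Interferons act through Jak kinases and Stat factors and switch on guanylate-binding proteins, immunity-related GTPases, antigen presentation and antiviral genes. Many of these genes carry an interferon-stimulated response element near their start. The promoters of 3 genes whose levels are given below are shown, from 250 bases before to 50 after the start of the gene, from RefSeq on GRCm38.p6. Capitals mark the match to the element searched, which is GAAA, any 2 bases and GAAA, or to its reverse complement. The windows are chr3:142620413-142620712 (+ strand) for Gbp2, chr11:58199306-58199605 (+ strand) for Igtp and chr10:128270248-128270547 (+ strand) for Stat2. The matches lie 59, 34 and 222 bases before the start.
Gbp2: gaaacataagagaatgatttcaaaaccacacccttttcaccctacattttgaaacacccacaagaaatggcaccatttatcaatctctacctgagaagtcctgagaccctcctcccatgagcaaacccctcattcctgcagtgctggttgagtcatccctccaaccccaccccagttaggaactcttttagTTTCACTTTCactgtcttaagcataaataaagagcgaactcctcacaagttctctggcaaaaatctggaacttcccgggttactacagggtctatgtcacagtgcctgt
Igtp: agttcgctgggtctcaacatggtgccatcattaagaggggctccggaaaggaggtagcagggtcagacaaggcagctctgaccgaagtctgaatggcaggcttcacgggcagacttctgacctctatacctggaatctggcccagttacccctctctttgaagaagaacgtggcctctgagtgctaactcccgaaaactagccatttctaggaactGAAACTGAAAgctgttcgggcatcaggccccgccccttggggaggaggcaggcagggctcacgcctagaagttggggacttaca
Stat2: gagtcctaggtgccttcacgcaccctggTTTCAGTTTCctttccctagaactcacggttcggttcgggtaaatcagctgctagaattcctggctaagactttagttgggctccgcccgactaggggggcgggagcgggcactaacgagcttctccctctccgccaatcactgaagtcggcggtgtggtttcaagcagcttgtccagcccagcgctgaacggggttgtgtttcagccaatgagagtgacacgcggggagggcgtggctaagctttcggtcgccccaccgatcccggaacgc

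Of the 10 tested guanylate-binding and immunity-related GTPase genes 7 had a promoter in the RefSeq table, and 6 of these held this element on either strand, beside 3.44% of all 32851 promoters of that length. The Stat-type element TTCNNNGAA was found in 3 of the 7, beside 8.3% of all promoters. Among antiviral genes with a promoter 9 of 17 held the first element, and among class I antigen presentation genes 2 of 10. A gene was counted if any promoter listed for it matched, whereas the shares of all promoters count single promoters. A match describes the letters of the window only.

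Both GTPase families were higher as a whole. Of 4 guanylate-binding protein genes all 4 were higher at an unadjusted p under 0.05, with a median difference of 1.49, and of 6 immunity-related GTPase genes all 6, with a median of 1.78. None passed the adjusted threshold with all arrays. Gbp2 had levels of 9.74, 8.85, 5.97, 9.60 and 9.36 in modafinil arrays 1 to 5, against 6.06, 6.70, 6.48, 5.90 and 6.03 in vehicle arrays 1 to 5. Modafinil array 3 stood among the vehicle arrays and the other 4 were well above them. The difference was 2.47 (SE 0.58, limma adjusted p = 0.0669), and 3.15 without modafinil array 3. Igtp, an interferon-inducible GTPase, had 9.99, 9.47, 7.56, 9.92 and 10.02 in modafinil arrays and 7.36, 7.68, 7.39, 7.61 and 7.30 in vehicle arrays. Array 3 again lay inside the vehicle range, and the difference was 1.92 (adjusted p = 0.0523). Iigp1 differed by 2.49, Ifi47 by 1.95, Gbp6 by 1.76, Irgm2 by 1.64 and Irgm1 by 1.00. Irgc1 differed by only 0.28 and was the single member without overlap. Without modafinil array 3, all 4 guanylate-binding and 5 of the 6 immunity-related GTPase genes passed the adjusted threshold, in a fit that called 172 probe sets. That array was singled out by its low levels of these same genes, so values without it are no independent support.

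Modafinil array 3 was also the lowest modafinil array for the regulators and antigen processing genes named here. Stat2, the Stat factor of the type I interferon complex, had 6.88, 6.87, 6.59, 6.90 and 6.86 in modafinil arrays 1 to 5 and 6.49, 6.38, 6.31, 6.33 and 6.23 in vehicle arrays 1 to 5. Array 3 was the lowest modafinil array but was still above all vehicle arrays, and Stat2 rose by 0.47 (SE 0.075, limma adjusted p = 0.0454). Irf7 differed by 0.55 and Irf1 by 0.53, both transcription factors of the pathway, and 5 of 11 such genes were higher with none lower. Of 8 interferon receptor and Jak kinase genes none was higher or lower, and 2 were higher without vehicle array 3. Psmb9, an immunoproteasome subunit that helps cut proteins into peptides for class I molecules, had 8.26, 8.00, 7.07, 8.15 and 8.08 in modafinil arrays and 6.98, 7.03, 6.81, 6.91 and 6.81 in vehicle arrays. Psmb9 rose by 1.01 (SE 0.18, adjusted p = 0.0497) and stands in modafinil array 3 at the edge of the vehicle range. Its partner Psmb8 differed by 1.15 and the peptide transporter gene Tap1 by 0.84. None of 34 constitutive proteasome subunits was higher or lower, with a median of −0.02, and 2 were lower without vehicle array 4.

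Presentation and antiviral genes differed by smaller amounts. Of 12 class I genes 6 were higher, including B2m, the shared light chain (0.70), H2-D1 (0.49) and H2-M3 (0.34), and 1 was lower, the chaperone gene Calr (−0.25). Probe sets of the H2 genes may read more than one family member. Without modafinil array 3, singled out as described above, the difference was 0.91 for B2m and 0.63 for H2-D1. Of 7 class II genes 4 were higher, among them Cd74, the invariant chain, at 0.33, but without modafinil array 1 only 2. Of 24 antiviral genes 12 were higher and 2 lower with a median of 0.22. Members included the ADP-ribosyltransferase gene Parp14 (0.81), the tethering factor gene Bst2 (0.71), the receptor transporter gene Rtp4 (0.65) and the viperin gene Rsad2 (0.61). The antiviral count was 7 without modafinil array 1, modafinil array 4 or vehicle array 4, and 16 without modafinil array 3. Tnfsf10, a death ligand, differed by 1.16. Of 12 chemokine and cytokine genes 2 were higher and 1 lower. With the dopamine level as a covariate the differences were 2.42 for Gbp2, 1.90 for Igtp, 0.99 for Psmb9 and 0.53 for Stat2, and with the thalamic level they were 2.64, 1.93, 1.03 and 0.54. Microglial markers beside them were at list levels of 8.20 to 8.41 in modafinil arrays and 8.10 to 8.31 in vehicle arrays, with array 3 at 8.23.

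**Figure D5:**
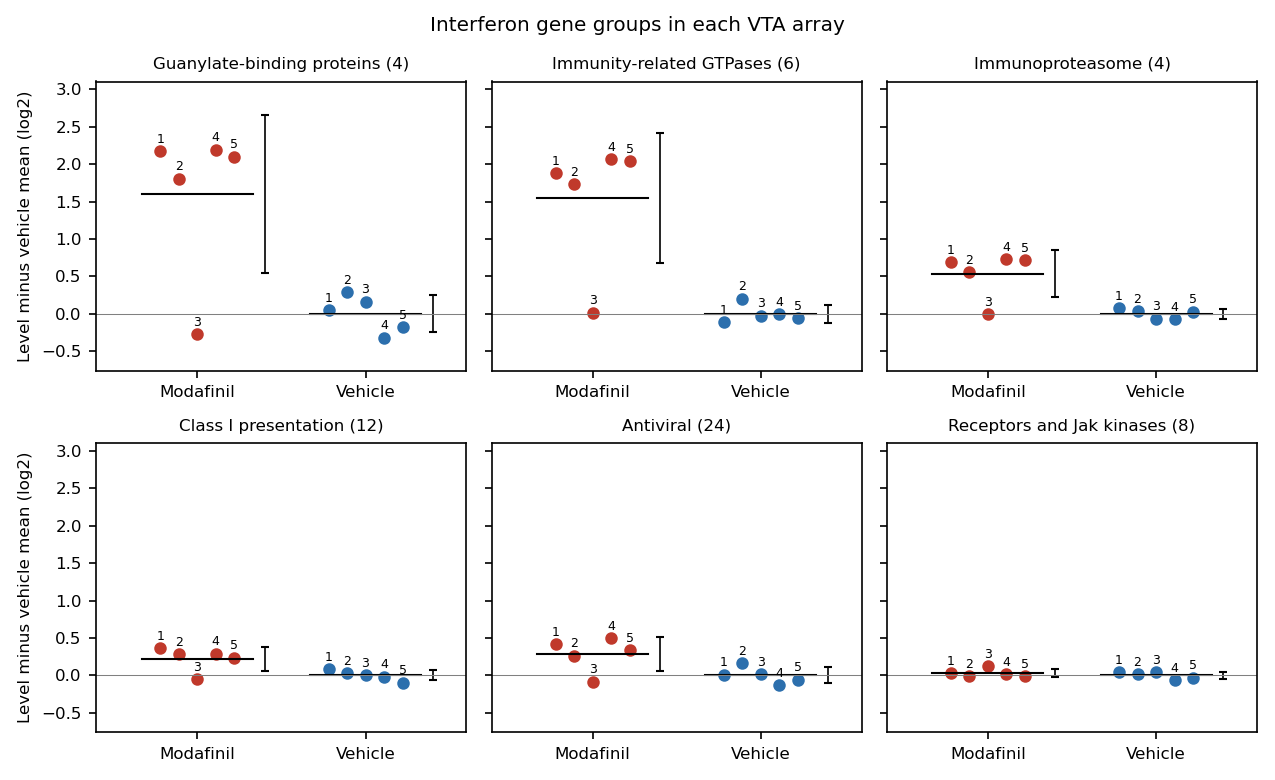
Mean level of 6 interferon-related gene lists in each VTA array, as log2 level minus the vehicle mean, modafinil left and vehicle right, with the group mean as a line and the SD of 5 arrays as a bar. In the GTPase panels 4 modafinil arrays lie far above the vehicle arrays and modafinil array 3 lies among them.

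Circadian genes were a second group that leaned one way. In the molecular clock, Clock and Arntl activate E-box genes, among them the Per, Cry, Bhlhe and Ciart repressors, while Rora supports Arntl transcription and the bZIP factors Dbp, Hlf and Tef carry the rhythm to output genes. Ciart, a repressor of Clock and Arntl, is shown by its promoter from RefSeq on GRCm38.p6, chr3:95882179-95882478 (− strand), read 5′ to 3′ along the gene, with its 3 E-boxes (CACGTG) in capitals.
Ciart: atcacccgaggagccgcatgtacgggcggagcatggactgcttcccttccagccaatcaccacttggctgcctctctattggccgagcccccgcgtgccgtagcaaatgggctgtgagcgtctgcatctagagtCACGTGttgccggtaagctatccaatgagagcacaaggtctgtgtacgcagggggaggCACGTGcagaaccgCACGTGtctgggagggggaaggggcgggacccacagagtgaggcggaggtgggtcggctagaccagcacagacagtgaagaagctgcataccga

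The first of these E-boxes lies 116 bases before the start. Of 8 clock repressors with a promoter in the table, Bhlhe41, Ciart, Cry1 and Per1, thus 4, held CACGTG, beside 7.15% of all promoters. Here too genes are set beside single promoters. Ciart had levels of 8.21, 7.88, 7.59, 7.77 and 7.68 in modafinil arrays 1 to 5 and 7.19, 7.20, 7.25, 7.11 and 7.32 in vehicle arrays 1 to 5. The lowest modafinil array was above the highest vehicle array, with a rise of 0.61 (SE 0.10, limma adjusted p = 0.0462). Of 10 clock repressors 5 were higher and none lower, 3 of them without overlap. They were Ciart, Bhlhe40 (0.30), Per2 (0.28), Per1 (0.21) and Nr1d2 (0.16). Without modafinil array 1, 3 were higher. The list level was 8.36 to 8.60 in modafinil arrays and 8.24 to 8.32 in vehicle arrays.

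Hlf had 10.93, 10.96, 10.45, 10.45 and 10.35 in modafinil arrays 1 to 5 and 9.32, 9.32, 9.27, 10.02 and 10.03 in vehicle arrays 1 to 5. Vehicle arrays 4 and 5 were the closest to the modafinil arrays, and Hlf rose by 1.03 (SE 0.18). The other tested Hlf probe set differed by 0.49 with overlap (limma adjusted p = 0.103). Dbp differed by 0.48 with overlap (limma adjusted p = 0.0753). Rora, a nuclear receptor that is also in the thalamic list, had 11.86, 10.52, 10.94, 10.68 and 10.66 in modafinil arrays and 9.61, 9.48, 9.73, 9.47 and 10.01 in vehicle arrays, a rise of 1.27 (SE 0.22). All 9 tested Rora probe sets were higher in the modafinil mean, by 0.08 to 1.33, and 2 of them passed. Arntl, the core activator, differed by 0.03. With the dopamine level as a covariate Hlf differed by 0.56 and Ciart by 0.47, and with the thalamic level by 0.51 and 0.44.

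Activity-regulated and stress hormone genes differed modestly. Of 25 immediate early genes 8 were higher and none lower, with a median of 0.03, led by Ier3 (0.47, without overlap) and the phosphatase gene Dusp5 (0.37). Without modafinil array 1 the count was 4, and without modafinil array 4 or vehicle array 2 it was 5. Of 19 glucocorticoid-responsive genes 7 were higher and none lower, with a median of 0.13. They included Klf9 (0.31, without overlap), the zinc finger gene Zbtb16 (0.54) and the glucocorticoid receptor chaperone gene Fkbp5 (0.20). That count was 2 without modafinil array 1 and 4 without modafinil array 2 or 5 or vehicle array 3 or 4, and without vehicle array 4, 3 were lower.

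Heat shock, sterol synthesis and zinc finger genes were lower in a larger share than the 15.5% of all genes. Of 21 heat shock and chaperone genes 6 were lower and 4 did not overlap, among them Hspb8 (−0.39), the co-chaperone gene Bag3 (−0.37) and the small heat shock gene Cryab (−0.33), and the count was 3 without modafinil array 2 or vehicle array 5. Of 20 sterol synthesis genes 8 were lower and 1 higher, with the lanosterol synthase gene Lss at −0.32 and the squalene synthase gene Fdft1 at −0.30. That count was 3 without modafinil array 1, 4 without modafinil array 2 or vehicle array 1, and 5 without vehicle array 4. Zinc finger genes named Zfp, mostly transcription factors, were the most numerous family. Of 292, 78 were lower (26.7%) and 8 higher (2.74%, and 5 without modafinil array 1 or vehicle array 1), 246 values were below 0 and the median difference was −0.11. The mean level of these genes was lowest in modafinil array 2, at 7.81. Without that array 55 were lower, beside 1412 of all genes in the same setting, and 48 were lower when vehicle array 4 was left out as well. POU and homeobox genes did not exceed that share, with 6 of 45 lower (13.3%), among them the midbrain factor gene En2 at −1.21 and Pbx3 at −0.53, and 3 higher. Without vehicle array 4 the count of lower ones was 12.

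Ribosomal, oxidative phosphorylation and splicing factor genes had few members that were higher or lower. Of 46 cytosolic ribosomal protein genes 2 were lower and none higher, with a median of −0.03, and without vehicle array 2 the count was 4. Of 79 oxidative phosphorylation genes 3 were higher and none lower, with a median of −0.01, and the muscle-type cytochrome oxidase gene Cox6a2 was one of them at 0.77. Without modafinil array 1 the count was 1, and without vehicle array 4, 3 were lower. Of 29 splicing factor genes 2 were lower and none higher, and the count was 0 when modafinil array 2 or 5 was left out and 5 when modafinil array 3 was. Of 30 synaptic vesicle release genes 6 were higher, including the active zone gene Rims1 (0.25), and 3 lower, including Syn3 (−0.42). The count of 6 was 3 without modafinil array 1 or 3 or vehicle array 2 or 3, and without vehicle array 4, 5 were lower.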

How the data were processed

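Levels of messenger RNA in punched VTA were read from the log2 values that the authors deposited for Affymetrix mouse GeneChip arrays. Per the submitters' processing notes the authors used RMA. Its version is not stated by the sources used here. Raw intensities and scan dates were not used here. Arrays were grouped by their labels, 5 modafinil and 5 vehicle. Precision is limited by this number of arrays.

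After 64 control probe sets were left out, 27022 of 45037 probe sets whose mean over the 10 VTA arrays reached the 40th percentile (6.165) entered a fit by limma (version 3.58.1, R version 4.3.3; lmFit, then eBayes) with Benjamini-Hochberg adjustment and a threshold of 0.05. Of all probe sets 34945 had 1 symbol, 932 several and 9160 none, and 34741 were matched through the Entrez identifier. Each of 12567 genes was read from its brightest probe set over the 10 arrays for 76 gene lists, of which 1485 genes were tested and 67 stood in more than 1 list. Named genes are those past the threshold, the 6 smallest p-values of each list, a fixed set of dopamine, thalamic, glial, clock and interferon genes, and the 6 just outside the threshold. Members and lists were chosen with earlier results of these data known, so no list is independent support.

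Alternatives were quantile normalization, no filter, a 60th percentile filter, trend and robust estimation, array weights, a replicate block, all 36 arrays in 1 fit, 1 probe set per gene, the dopamine or the thalamic marker level as a covariate, each array left out, and vehicle array 4 with modafinil array 2 left out. The last, and the list counts with each array left out, were chosen after seeing the data. Tested on simulated arrays of this comparison with 200 of 27022 probe sets changed, the fit found 71.8% of changes of 0.5 and 95.4% of changes of 1, and 4.18% of its calls were unchanged probe sets. The simulated noise was drawn separately for each probe set. Variation that many probe sets of an array share was therefore absent, and these percentages do not cover it. Same-numbered arrays did not deviate together (correlations of −0.168, 0.2, 0.0628, 0.0736 and −0.195), so replicate numbers were not taken as pairs. So few correlations cannot settle whether the numbers pair the arrays.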

Additional observations from a re-analysis of the deposited data

Results flagged for a closer look

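In 29 of 266 groups of 5 arrays that were checked, 142 of them list levels, a single array lay far from the other 4 of its group by Dixon's criterion. Chance gives about 1 in 20 such groups, and all groups share the same arrays.

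Modafinil array 3 was low in interferon-related genes. Its level was 6.95 for guanylate-binding protein genes, with the next modafinil array at 9.03, and 6.99 for immunity-related GTPase genes, with the next at 8.71. For immunoproteasome and activator genes it was 8.11 beside 8.67, for complement genes 7.77 beside 7.92, for Psmb9 7.07 beside 8.00 and for Stat2 6.59 beside 6.86.

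Modafinil array 1 was high in genes that rose. It stood at 7.08 for Homer1 (next array 6.77), 8.51 for Peak1 (7.87), 11.08 for Atp2b1 (10.48) and 10.87 for Rgs7bp (10.18). It also stood at 9.09 for Il1rap (8.25), 8.87 for Synpo2 (8.23) and 8.16 for Shisa6 (7.07). The Pdp1 probe sets were at 10.75 (10.08) and 12.39 (11.76) in that array.

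Modafinil array 2 was low for hypothalamic markers (6.88, next 7.33), GABA neuron markers (8.71, next 8.96), tripartite motif genes (8.26, next 8.38) and Zfp genes (7.81, next 7.97). Modafinil array 5 was high for acetylcholine receptor genes (7.62, next 7.30).

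Vehicle array 4 was high for choroid plexus and ependymal markers (8.03, next 7.15), clock repressors (8.32, next 8.26), G protein subunits (9.87, next 9.75) and collagens (7.36, next 7.30). Vehicle array 2 was low for cortical markers (8.13, next 8.45), ribosomal protein genes (11.3, next 11.38) and Ywhaz (11.52, next 11.75). Vehicle array 5 was low for Cdc73 (7.11, next 7.27) and high for Gjc1 (8.31, next 8.00).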

How the results depend on the processing

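The number of probe sets past the adjusted threshold varied widely with the processing. Beside the 70 reported (51 higher and 19 lower), it was 311 (234 and 77) after quantile normalization, 291 (160 and 131) with the 60th percentile filter, 241 (132 and 109) with trend and robust estimation, 704 (355 and 349) with array weights and 1043 (491 and 552) with all 36 arrays in 1 fit. It was 1 (0 and 1) with 1 probe set per gene and 10 (6 and 4) without vehicle array 4 and modafinil array 2. Limma called 0 without the filter, with 7319 at an unadjusted p under 0.05, and 0 with the replicate block, with 5795. It also called 0 with the dopamine or the thalamic level as a covariate, with 2060 and 4278. Leaving out single arrays gave 0 to 172 calls, 0 to 112 higher and 0 to 60 lower. The 70 reported values kept their direction under quantile normalization and both covariates. They also did so with the replicate block and with each array left out, but those settings could not reverse them. The groups did not overlap in any of the 70, and the block leaves each difference unchanged. The cause of these changes was not tested.

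Over 71 lists the alternatives gave 1065 medians, of which 1030 moved by no more than 1 SD. That SD is the pooled SD between arrays of the mean level of the list. Leaving out an array shifts a group mean by only part of its SD, and the replicate block leaves differences unchanged. Most of these settings could therefore hardly move a median by 1 SD, and the count is no measure of stability. The astrocyte median was 0.017 over all tested probe sets. That of interferon transcription factors was 0.10 with the 60th percentile filter and 0.028 over all probe sets, and that of interferon receptor and Jak genes 0.049 after quantile normalization. The class II median was −0.033 with the 60th percentile filter and 0.094 to 0.30 with single arrays left out, and the immunoproteasome median −0.00316 with that filter. With the dopamine level as a covariate, built from some of the same genes, Th was at 0.24, Slc6a3 at 0.11, Slc18a2 at 0.33, Ddc at 0.23, Drd2 at 0.045 and Tcf7l2 at −0.22. With the thalamic level Arntl was at −0.24 and the brighter Rasgrp1 probe set at −0.077. With single arrays left out Arntl ran from −0.030 to 0.076. Pairing by replicate number moved the count from 70 to 0, and whether the numbers pair these arrays was not settled by the correlations. Signal over background could not be judged from summarised values.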
